A study of Mus musculus with 120 samples.

Results

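Genes of the nuclear genome that encode subunits of the mitochondrial respiratory chain and of ATP synthase were followed in mouse bone-marrow-derived macrophages treated with halofuginone. Members were chosen by symbol alone: Ndufa, Ndufb, Ndufc, Ndufs or Ndufv followed by a digit (complex I, 37 genes), Uqcr (complex III, 8), Cox4 to Cox8 (complex IV, 18) and Atp5 (complex V, which is ATP synthase, 17). These were 80 of the 23481 genes in the count table. In all, 74 members had a count in at least 1 of the 120 libraries, 4 of them with 20 counts or fewer over all libraries, and 70 had 80 or more. The 6 members without a count were Cox4i2, Cox6b2, Cox7b2, Cox8b, Cox8c and Ndufa4l2, most of them known as forms used in other tissues or in germ cells. Of the 79 members found in the gene annotation, 3 lay on the X chromosome, and the 79 were spread over 19 chromosomes. Some symbols do not name classical subunits of the complex they were counted under. Ndufa4 is now placed in complex IV, Cox7a2l is a factor that joins complexes into supercomplexes, and Atp5s and Atp5sl had 5 and 11 counts in all. Subunit genes often have near-identical pseudogenes, and how reads shared with such copies were counted is not stated.

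The electron transport chain passes electrons from NADH and succinate to oxygen and pumps protons across the inner mitochondrial membrane, and ATP synthase uses the returning protons to make ATP. Most of its subunits are translated in the cytosol and imported, while a small core is made inside mitochondria from mitochondrial DNA. In macrophages, stimulation with lipopolysaccharide (LPS), a component of the bacterial wall, is known to move energy metabolism from respiration towards glycolysis. Halofuginone occupies the proline site of the prolyl-tRNA synthetase in Eprs, and added proline competes with it. No symbol of a mitochondrially encoded subunit was analysed here.

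Macrophages were grown in CMG-containing medium from wild-type marrow of male C57BL/6 mice aged 12 weeks, and every group, controls included, carried a virus reporting on transcription factors. Each library has a time label of 0, 1 or 4 without a unit, written T0, T1 and T4 here. By the series design halofuginone was given 30 min before LPS, and the times after T0 are read as times after LPS on that basis, since no label names the libraries that received it. At each time there were 12 control libraries, which carry no proline label, and 2 libraries at each of 7 doses (2.4, 9.7, 39, 156, 625, 2500 and 10000 nM), once with halofuginone alone and once with 2 mM proline added. The treatment notes speak of a dose curve over 4 h and do not tie the time labels to the 30 min of pretreatment. The 6 libraries of an arm at 625 nM and above are called high doses, the 4 at 39 and 156 nM middle doses, and the 4 at 2.4 and 9.7 nM low doses. No label says whether replicates came from separate cultures or animals, so p-values measure only the spread between these libraries, which may be technical.

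Libraries held 20000 to 114061 counts with a median of 49515, and 8 held fewer than 30000. Rn45s, the precursor of the ribosomal RNAs, took 49.6% of all counts. Levels are therefore given as shares of the counts outside Rn45s, in percent or as CPM (scaled to the same total in each library). High-dose libraries were shallower. They had on average 15180, 11401 and 16012 such counts at T0, T1 and T4 without proline, against 29182, 32131 and 46528 in controls. Where counts of a member are given below for controls and high doses, they are sums over 12 and 6 libraries. These sums are not scaled to depth, so an unchanged gene would also have fewer counts at high doses. All 17 macrophage markers in the table had counts, Csf1r with 4739 and Cd14 with 2245, but Lyz2, usually abundant in these cells, had 18 in all libraries together. T and NK cell, erythroid, mast cell and fibroblast markers were at or near 0 (Cd3e and Hbb-b1 at 0, Col1a1 at 7). Neutrophil markers were present, S100a8 with 407 counts. The summed level of the 9 neutrophil markers in the table ran from 440 to 1048 CPM in T0 controls and from 0 to 545 CPM at high doses of halofuginone, and at T4 from 192 to 945 CPM and from 66.3 to 203 CPM. That of the 17 macrophage markers ran from 7883 to 11203 CPM in controls and from 5690 to 8014 CPM at high doses at T0, and at T4 from 5018 to 7101 CPM and from 2813 to 4261 CPM, without overlap. The 8 dendritic cell markers in the table summed to 55.2 to 290 CPM and 0 to 171 CPM at T0, and to 229 to 550 CPM and 43 to 271 CPM at T4. The mean summed level of all 3 lists was thus lower at high doses at both times, and their part in the results below was not tested.

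The first question was how the subunit transcripts moved with time in controls, after LPS by the series design. Together the members took 1.06% ± 0.108 of counts (SD, n = 12) at T0, 0.873% ± 0.135 (n = 12) at T1 and 0.690% ± 0.112 (n = 12) at T4. At T0 the lowest, median and highest libraries had 0.855%, 1.05% and 1.22%, and at T4 0.554%, 0.664% and 0.922%. The groups overlapped, but 10 of the 12 T4 libraries lay below every T0 library, and 5 of 12 did at T1. The T4 mean was 0.59 times the T0 mean for complex I, 0.74 times for complex III, 0.67 times for complex IV and 0.69 times for ATP synthase. Sums over members were given no test.

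Among the 5 single members tested, Atp5g3 was the one called lower at both later times. It encodes a copy of the membrane ring subunit c of ATP synthase. Its level had a low of 185, a median of 389 and a high of 552 CPM in T0 controls, and 95.9, 187 and 352 CPM in T4 controls, so that the groups overlapped. The log2 fold change was -0.72 (SE 0.24, edgeR adjusted p = 0.0186) at T1 and -0.79 (SE 0.23, edgeR adjusted p = 0.00198) at T4. Only 5 members had enough counts in the controls to be tested, and 1 of 5 was lower at each time, against a background of 8.19% of the 708 genes tested lower at T1 and 39.7% at T4. The others were Atp5l, Cox4i1, Cox6b1 and Ndufa1, with log2 changes at T4 between -0.39 and -0.20. No member was higher. Without the filter on low counts Atp5g3 was not called (log2 -0.55, edgeR adjusted p = 0.387 at T1, and -0.48, edgeR adjusted p = 0.197 at T4). Of the 70 members with at least 80 counts, 67 had a lower pooled level at T4 than at T0 and 58 at T1, where all 5324 genes with that many counts were lower in 69.5% and 61.9% of cases. The median log2 ratio at T4 was -0.71 over the members and -0.58 over all genes.

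High doses of halofuginone went with a much smaller share of subunit transcripts at every time. At T0 the 6 libraries had a lowest, median and highest total share of 0.358%, 0.433% and 0.523%, at T1 0.312%, 0.364% and 0.578%, and at T4 0.116%, 0.218% and 0.247%. The means were 0.437% ± 0.0581 (SD, n = 6), 0.396% ± 0.0952 (n = 6) and 0.206% ± 0.0485 (n = 6). At none of the times did a high-dose library reach the lowest control, and the ratios to control were 0.41, 0.45 and 0.30. Beside these values, Rn45s took 62.3%, 62.8% and 64.6% of counts at high doses against 47.7%, 43.6% and 38.0% in controls. The Lars2 row carries the name of a mitochondrial tRNA synthetase, but an alternative fit left it out together with the structural RNA rows. Which transcripts its reads came from was not tested. That row took 8.36%, 9.54% and 12.0% of counts outside Rn45s against 4.41%, 4.54% and 3.69%. The part of these shifts and of depth in the result was not tested. In these bulk libraries, fewer cells and less RNA per cell cannot be told apart.

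**Figure D1:**
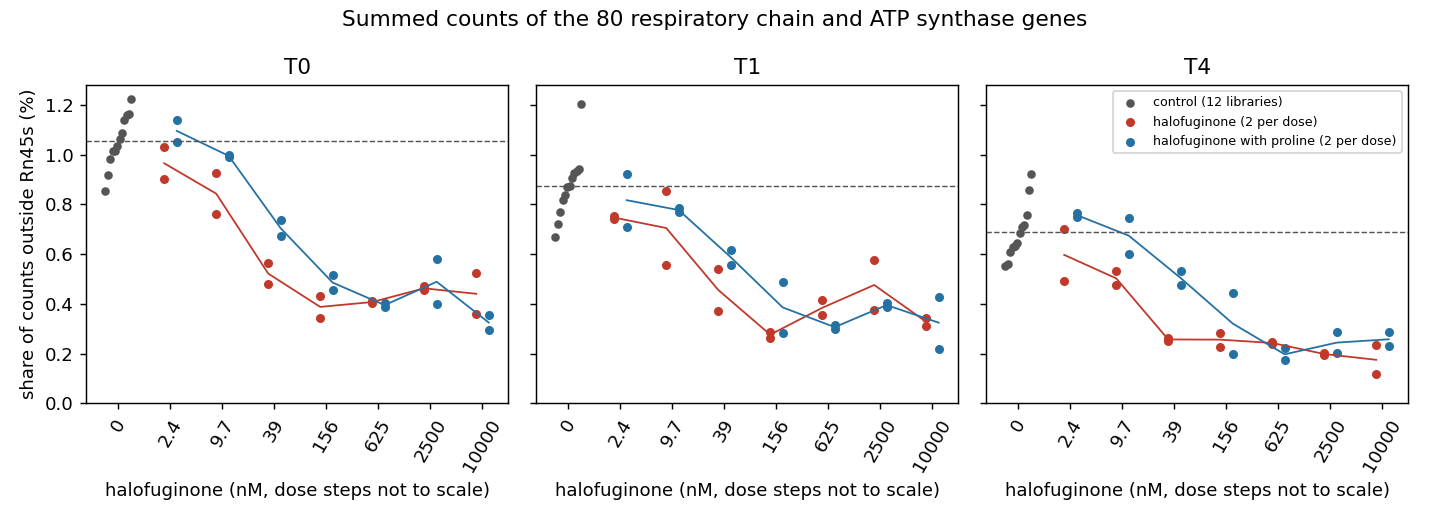
Summed share of the 80 members in counts outside Rn45s (y axis, %) against halofuginone dose (x axis, nM, steps not to scale) at T0, T1 and T4. Points are libraries, grey for the 12 controls, red for halofuginone alone and blue for halofuginone with 2 mM proline, lines join the means of the 2 libraries at a dose, and the dashed line is the control mean. Without proline the means at T0 go from 0.965% at 2.4 nM to 0.522% at 39 nM and 0.441% at 10000 nM.

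All 4 complexes had lower shares. Complex I, which takes electrons from NADH, had 0.362% ± 0.0579 (SD, n = 12) of counts in T0 controls and 0.124% ± 0.0355 (n = 6) at high doses, and at T4 0.213% ± 0.0319 (n = 12) and 0.0594% ± 0.0274 (n = 6). Complex IV, cytochrome c oxidase, had 0.270% ± 0.0531 (n = 12) and 0.101% ± 0.0244 (n = 6) at T0, and 0.180% ± 0.0402 (n = 12) and 0.0330% ± 0.0150 (n = 6) at T4. ATP synthase had 0.324% ± 0.0382 (n = 12) and 0.157% ± 0.0468 (n = 6) at T0, and 0.224% ± 0.0445 (n = 12) and 0.0845% ± 0.0321 (n = 6) at T4. The groups did not overlap for these complexes at T0 or T4. For complex III, the cytochrome bc1 complex, 5 of 6 high-dose libraries lay below every control at each time, with 0.0987% ± 0.0199 (n = 12) and 0.0540% ± 0.0281 (n = 6) at T0 and 0.0729% ± 0.0160 (n = 12) and 0.0287% ± 0.0208 (n = 6) at T4. At T1, 5 of 6 high-dose libraries were below all controls in each complex. The ratio at T4 was 0.18 for complex IV, 0.28 for complex I, 0.38 for ATP synthase and 0.39 for complex III, differences between complexes that were not tested.

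**Figure D2:**
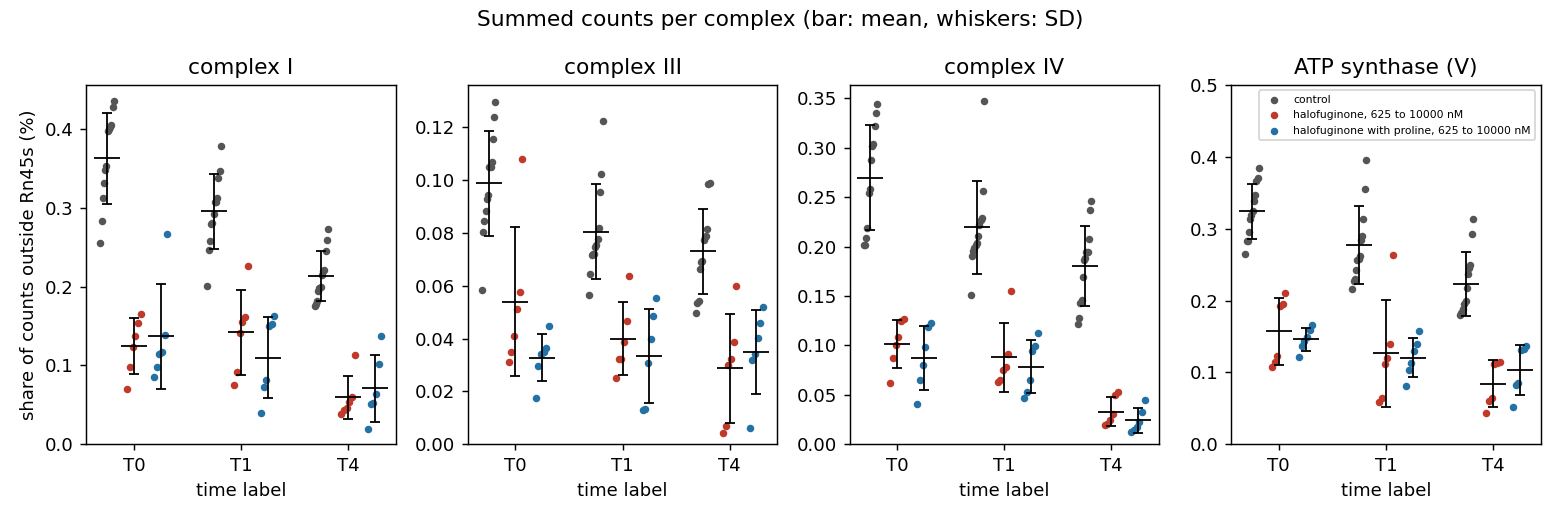
Summed share of counts outside Rn45s (y axis, %) for complexes I, III, IV and V at T0, T1 and T4 (x axis), in 12 controls (grey) and 6 libraries each at 625 to 10000 nM without (red) and with proline (blue). Points are libraries, bars are means and whiskers are SD. At T4 complex IV has a mean of 0.180% in controls and 0.0330% with halofuginone.

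Without proline every library at 39 nM and above lay below all controls, and single libraries did so at lower doses. At T0 without proline the mean total share of the 2 libraries was 0.965% at 2.4 nM, 0.843% at 9.7 nM, 0.522% at 39 nM and 0.388% at 156 nM, and stayed between 0.408% and 0.463% from 625 to 10000 nM. At T4 the same doses gave 0.597%, 0.503%, 0.257% and 0.256%, then 0.243%, 0.199% and 0.175%. Middle-dose libraries lay below all controls at each time, at 0.43, 0.42 and 0.37 times the control mean, while low-dose libraries were at 0.86, 0.83 and 0.80 times, with 1, 1 and 3 of 4 below all controls. At T4 these were both libraries at 9.7 nM, with 0.475% and 0.531%, and 1 at 2.4 nM with 0.492%. With proline no low-dose library lay below all controls. With 2 libraries at each dose, differences between neighbouring doses were not tested.

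In the tests of single genes, 9 of 14 tested members were lower at high doses at T0, 4 of 8 at T1 and 11 of 13 at T4 (edgeR adjusted p under 0.05), and none were higher. The background of genes called lower was 23.5% of 1130 at T0, 23.3% of 1066 at T1 and 35.5% of 1315 at T4. The median fitted log2 change over the tested members was -1.57, -1.76 and -2.83, and over all genes tested -0.19, -0.21 and -0.23. At T1 the 4 were Atp5j, Atp5k, Atp5l and Cox7a2l. Without libraries under 30000 counts none of these 4 passed at T1 (Atp5l at edgeR adjusted p = 0.0589), and Atp5e, Cox6b1 and Cox7b, which that fit tested, were lower. Members passed the filter on low counts mainly through the controls, where they were high, so these counts lean towards lower and do not stand for all members. Of the 70 members with at least 80 counts, the pooled level was lower in 68 at T0, 62 at T1 and 63 at T4, and all genes with that many counts were lower in 57.0%, 56.6% and 56.3% of cases. Median log2 ratios of pooled levels over the 70 were -1.23, -1.10 and -2.03, beside -0.13, -0.06 and -0.09 over all genes.

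**Figure D3:**
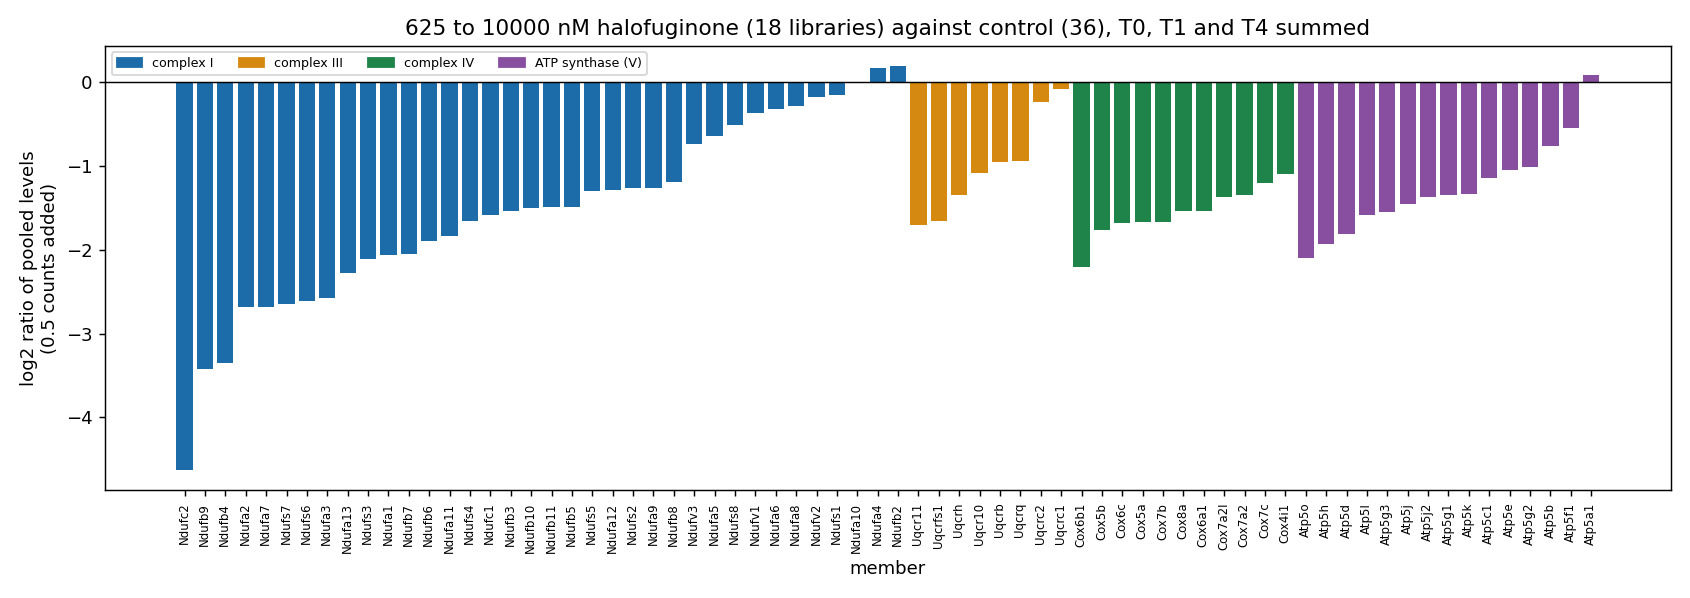
Log2 ratio of the pooled level at 625 to 10000 nM halofuginone without proline (18 libraries) to that in 36 controls, T0, T1 and T4 summed and 0.5 counts added (y axis), for each of the 70 members with at least 80 counts (x axis), coloured by complex. Bars reach below 0 for 67 of 70 members, and the median is -1.41.

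Complex I held the most members, of which Ndufa1 alone had enough counts to be tested at a single time. Ndufa1, an accessory subunit encoded on the X chromosome, had 83.7, 265 and 453 CPM (lowest, median, highest) in T0 controls, and was without a count in 4 of 6 high-dose libraries, the other 2 reaching up to 171 CPM. It was lower at T0 (edgeR adjusted p = 0.000466) and at T4 (log2 -2.16, SE 0.72, edgeR adjusted p = 0.00926, and down to -3.58 with 1 library left out). The fitted T0 change depends on the small count added where a dose pair has none. With the 3 doses taken as 1 group it was -2.02 (edgeR adjusted p = 0.0155). Ndufa2 had 89 counts in T4 controls and none in the 6 high-dose libraries, which puts its level at least 5.1-fold lower with a floor of 3 counts over the pool. Ndufa13, also known as GRIM-19, had 74 counts in T0 controls and 4 at high doses. Ndufc2 had 23, 22 and 17 counts in controls at T0, T1 and T4 and none in any of the 18 high-dose libraries without proline.

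Complex III members were mostly under the filter. Uqcrh, the hinge protein of the cytochrome c1 site, had 38.4, 203 and 599 CPM (lowest, median, highest) in T0 controls and 0, 108 and 216 CPM at high doses, with 2 libraries at 0. The groups overlapped and it did not pass the test (log2 -2.12, SE 0.90, edgeR adjusted p = 0.0528). At the same doses with proline it had 4 counts in 6 libraries, against 77 in controls, and was lower (edgeR adjusted p = 0.00125). No other complex III member was called in any comparison, or tested. Uqcrc1, which encodes a core protein, had 45 counts in T4 controls and 10 at high doses, which is 80.6 and 104 CPM. Uqcrc2, the other core protein, went from 117 to 132 CPM at T0. Uqcr10, a small accessory subunit, had 54 counts in T4 controls and 2 at high doses.

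Complex IV held 5 of the 11 members called at T4. Cox4i1, the main form of the regulatory subunit 4, had 141, 406 and 628 CPM (lowest, median, highest) in T0 controls and 51.2, 134 and 216 CPM at high doses, so the groups overlapped between 141 and 216 CPM. Its log2 change was -1.45 (SE 0.46, edgeR adjusted p = 0.00829) at T0. At T1 Cox4i1 was tested and not called (log2 -0.36, SE 0.42, edgeR adjusted p = 0.532). At T4 its change was -2.06 (SE 0.58, edgeR adjusted p = 0.00212), and 2 of 6 libraries had none. The T4 value became -3.42 without 625 nM replicate 2 and -3.24 without 2500 nM replicate 2. Cox6b1, on the intermembrane side of the dimer, had 221, 286 and 652 CPM in T0 controls and 0, 92.9 and 233 CPM at high doses (log2 -1.68, SE 0.51, edgeR adjusted p = 0.00621, and -3.25 without 10000 nM replicate 1). Cox6c, an accessory subunit, had 117, 212 and 402 CPM in T4 controls and no count in all 6 high-dose libraries, at least 6.8-fold lower (edgeR adjusted p = 2.91e-05). Every control library thus had Cox6c counts at T4 and no high-dose library had one. Cox5a was lower at T4 (76 and 1 counts, edgeR adjusted p = 0.00212), and so was Cox7c (92 and 6 counts, edgeR adjusted p = 0.0254), a call that 3 of 18 refits with 1 library left out lost. Without the 10000 nM dose the T4 change of Cox7c was -0.67 (edgeR adjusted p = 0.452). Cox7a2l had 74, 82 and 33 counts in controls and 5, 6 and 3 at high doses. It was lower at T0 (edgeR adjusted p = 0.00219) and T1 (edgeR adjusted p = 0.0394). Without the 10000 nM dose its T1 change was -0.88 (edgeR adjusted p = 0.446). Replicate number as a block leaves few controls to compare, since treated libraries are numbered 1 or 2 only. Controls with other numbers then do not bear on the difference. In that fit Cox7c was not called at T4 (edgeR adjusted p = 0.738). Neither was Cox4i1 at T0 and T4 (edgeR adjusted p = 0.154 and 0.127). Cox7a2l was then not called at T0 and T1 (edgeR adjusted p = 0.0785 and 0.0869). DESeq2 made each of these calls.

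ATP synthase held members called lower at every time. Atp5l, subunit g of the membrane part, had 85.9, 225 and 479 CPM (lowest, median, highest) in T4 controls, and 2 counts in 6 high-dose libraries, 5 of which had none (edgeR adjusted p = 0.000108). At T0 it did not pass the test (log2 -0.89, SE 0.49, edgeR adjusted p = 0.14). The 3 genes for the same mature subunit c each had a lower pooled level at high doses over the 3 times summed. The log2 ratio, scaled to depth, was -1.34 for Atp5g1, -1.02 for Atp5g2 and -1.55 for Atp5g3. Their unscaled counts follow for T0, T1 and T4. Atp5g1 had 72, 38 and 63 in controls and 9, 3 and 1 at high doses, and Atp5g2 had 63, 50 and 35 and then 8, 5 and 1. Atp5g3 had 132, 87 and 114 in controls and 15, 5 and 2 at high doses, and was the one tested. It was lower at T0 (log2 -1.18, SE 0.47, edgeR adjusted p = 0.0396), a call lost with the 3 doses taken as 1 group (edgeR adjusted p = 0.0843). At T1 it did not pass (log2 -1.57, SE 0.69, edgeR adjusted p = 0.0684), and at T4 it was lower (edgeR adjusted p = 0.000256). Atp5j, a coupling factor of the stalk, was lower at all 3 times (edgeR adjusted p = 0.000756, 0.048 and 0.0106). Atp5h, another stalk subunit, was lower at T0 and T4 (edgeR adjusted p = 0.0072 and 0.000608). Atp5b, the catalytic beta subunit, was lower at T0 (log2 -1.46, SE 0.57, edgeR adjusted p = 0.0338). Atp5b was tested and not called at T1 (log2 -0.35, edgeR adjusted p = 0.683) and T4 (log2 -0.79, edgeR adjusted p = 0.188). Leaving out 1 library ended the T0 call of Atp5b in 5 of 18 refits, that of Atp5g3 in 5 of 18, and the T1 call of Atp5j in 8 of 17. DESeq2 did not call Atp5b or Atp5g3 at T0 (adjusted p = 0.0632 and 0.057) or Atp5j at T1 (adjusted p = 0.0517). Without the 10000 nM dose the log2 change of Atp5j at T1 was -0.18 (edgeR adjusted p = 0.851), where the full set gave -1.96, and Atp5b and Atp5g3 were not called at T0 (edgeR adjusted p = 0.092 and 0.0629). The T0 value of Atp5b became -3.05 without 625 nM replicate 2 and -2.84 without 10000 nM replicate 2.

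The sizes of these fitted changes depended on single libraries, and their signs did not. Of the 20 calls of named members at high doses without proline, 15 moved by over 1.5 times when some single library was left out. Over all 62 calls of named members there were 65 such refits in 45 calls, 64 of them towards a larger change, and in 64 the library left alone at its dose had no count of the gene.

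Atp5a1, the alpha subunit that forms the catalytic ring with Atp5b, was well counted and not called at any time. Its pooled level was 280 CPM in T0 controls and 264 CPM at high doses, 301 and 219 CPM at T1, and 210 and 312 CPM at T4. In T4 controls the lowest, median and highest libraries had 130, 198 and 384 CPM, and at high doses 86.1, 296 and 541 CPM, so the high-dose group spanned the controls. No test called it (log2 -0.05, SE 0.44, edgeR adjusted p = 0.936 at T0, and 0.46, SE 0.43, edgeR adjusted p = 0.367 at T4). The sign of its change at T0 differed between processing settings, from -0.65 to 0.34. Over the 3 times summed, 3 of the 70 members were not lower: Atp5a1 at a ratio of 1.06, Ndufa4 at 1.11 and Ndufb2 at 1.12. The last 2 rest on few reads, with 25 counts for Ndufa4 and 19 for Ndufb2 at high doses over the 3 times.

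With proline added, high doses gave values of the same order. The total share was 0.403% ± 0.0954 (SD, n = 6) at T0, 0.342% ± 0.0790 (n = 6) at T1 and 0.233% ± 0.0457 (n = 6) at T4, or 0.38, 0.39 and 0.34 times the controls, and no library overlapped them. Of the tested members, 11 of 14, 5 of 8 and 11 of 13 were lower and none higher (edgeR adjusted p under 0.05), against a background of 24.4%, 23.5% and 33.5%. These comparisons use the same 12 controls per time as those without proline, so the 2 sets are given side by side only. At T4 with proline Cox4i1 had 1 count in 6 libraries (edgeR adjusted p = 5.38e-06), Atp5l had none, at least 7.26-fold lower (edgeR adjusted p = 2.01e-05), and Cox6c had 1 (edgeR adjusted p = 0.000182). At middle doses without proline, 7 of 14, 3 of 8 and 9 of 13 were lower (background 14.7%, 16.1% and 25.9%) and none higher.

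The question of whether proline changed the effect was asked of the same doses with and without it. At 39 nM the libraries did not overlap at any time. At T0 they had total shares of 0.563% (95% Wilson interval 0.476 to 0.666) and 0.481% (0.410 to 0.564) without proline, and 0.736% (0.638 to 0.848) and 0.672% (0.587 to 0.771) with it. At T4 they had 0.252% (0.194 to 0.328) and 0.262% (0.198 to 0.346) without, and 0.532% (0.459 to 0.615) and 0.476% (0.403 to 0.562) with proline. Both libraries with proline were thus above both without it, and shares were given no test. The intervals cover counting error only. At 156 nM and T4 the libraries had 0.228% and 0.284% without and 0.443% and 0.199% with proline, and overlapped. Over the middle doses together the share with proline was 1.31, 1.33 and 1.61 times that without, over high doses 0.92, 0.86 and 1.13 times and over low doses 1.2, 1.1 and 1.3 times, with overlap in each. Within each single low dose the libraries did not overlap at T0 or T4, and they overlapped at T1. At T4 and 2.4 nM they had 0.492% and 0.702% without and 0.748% and 0.767% with proline. At T4 and 9.7 nM they had 0.475% and 0.531% without and 0.603% and 0.747% with it. At middle doses ribosomal protein genes were 1.35, 1.51 and 1.87 times as high with proline.

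No member passed the edgeR test of proline against none, at high doses (14, 8 and 13 tested) or at middle doses (14, 8 and 13 tested). The background was 0, 0 and 0% lower and 0.177%, 0 and 0% higher at high doses, and 1.86%, 0.563% and 1.29% lower and 0.265%, 0.657% and 2.81% higher at middle doses. At an unadjusted p under 0.05 there were 2, 1 and 1 members at high and 3, 2 and 2 at middle doses. Over all genes there were 111 of 1130, 117 of 1066 and 140 of 1315 at high doses. At middle doses there were 148, 154 and 251 of the same totals. DESeq2 called 0 members in each of these 6 comparisons. Some of these tests were void, because a dose pair without counts left the fit without a usable error: 2 of 14, 2 of 8 and 8 of 13 members at high doses and 3 of 13 at middle doses at T4. With the doses of a side taken as 1 group, Atp5l was higher with proline at middle doses at T4 (0 counts in 4 libraries without and 15 in 4 with it, edgeR adjusted p under 0.05) and no other member was called. Atp5b was higher with proline at middle doses at T1 without libraries under 30000 counts, and also without 156 nM with proline replicate 2, while with all libraries it did not pass (log2 3.36, edgeR adjusted p = 0.071). Atp5g3 was higher at middle doses at T0 without 39 nM replicate 1.

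Whether the effect of high doses differed between times was tested as an interaction over 54 libraries without proline. From T0 to T4, the change relative to controls was more negative for 2 of 21 tested members, against 14.8% of 1640 genes lower and 1.34% higher. They were Atp5l (log2 difference of effects -3.75, SE 1.2, edgeR adjusted p = 0.0148) and Atp5g3 (-3.29, SE 1.14, edgeR adjusted p = 0.0325). Atp5l had 17 counts in 6 high-dose libraries at T0 and 2 at T4, while the controls had 104 and 134. The size of both differences rests on dose pairs with few counts or none. With the doses taken as 1 group they were -2.94 and -2.20, and with 1 library left out they ran from -4.97 (without 2500 nM replicate 1 of T4) to -2.45 (without 625 nM replicate 2 of T0) for Atp5l and from -4.40 (without 625 nM replicate 2 of T4) to -2.78 for Atp5g3. Taking the doses as 1 group gave Atp5l (edgeR adjusted p = 0.0098) and Cox6c, whose test was void with separate doses, and lost Atp5g3 (edgeR adjusted p = 0.0592). DESeq2 called neither Atp5l (adjusted p = 0.0573) nor Atp5g3 (adjusted p = 0.139), and neither was called without the 10000 nM dose or without the filter on low counts. From T0 to T1 no member was called, beside 4.09% of genes lower and 0.122% higher. At an unadjusted p under 0.05 there were 2 of 21 members, beside 246 of 1640 genes. With DESeq2 the number called was 0. The fit gave no usable error for 6 members at T4 and 5 at T1. In the sums, the high-dose share at T4 was 0.47 times that at T0 without overlap, and in controls 0.65 times.

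Other gene sets moved by different amounts in the same libraries. Cytosolic ribosomal protein genes took 8.03%, 6.89% and 5.19% of counts outside Rn45s in controls and 3.41%, 2.95% and 1.33% at high doses, ratios of 0.43, 0.43 and 0.26. Proteasome genes were at 0.75, 0.75 and 0.62 times control, vacuolar ATPase genes at 1.19, 0.98 and 0.55 times, and glycolytic genes at 0.82, 0.83 and 0.90 times. Set against ribosomal protein counts, the members stayed close to control, with 13.2, 12.6 and 13.3 counts per 100 ribosomal protein counts in controls and 13, 13.5 and 15.6 at high doses. The members' ratio was thus close to that of the ribosomal protein genes and below those of the other sets at each time. With time in controls, ribosomal protein genes were at 0.65 times T0 at T4, the same ratio as for the members.

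**Figure D4:**
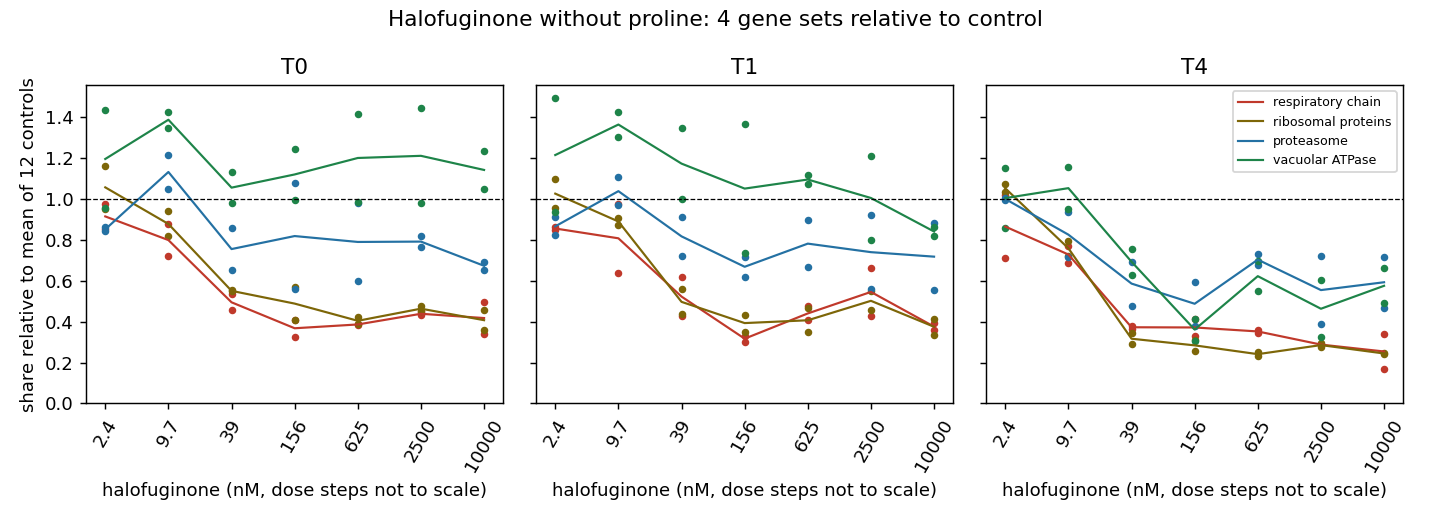
Share of counts outside Rn45s relative to the mean of 12 controls (y axis) against halofuginone dose without proline (x axis, nM, steps not to scale) for the members, ribosomal protein, proteasome and vacuolar ATPase genes at T0, T1 and T4. Points are libraries and lines join means of 2, and the lines of the members and the ribosomal protein genes run close together, at high-dose means of 0.41 and 0.43 at T0 and 0.30 and 0.26 at T4.

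Member mRNAs are short, and short mRNAs were lower as a class. The median annotated length was 725 bases over the 70 members with at least 80 counts and 2899 bases over the other genes with a length. In high doses over the 3 times summed, the 49 members under 1000 bases had a median log2 ratio of -1.54 (48 lower) and the 21 longer ones -1.15 (19 lower). Among the 4902 other genes, the 403 short ones had a median of -1.18 (334 lower) and the 4499 long ones 0.02 (2235 lower). Without ribosomal protein genes, the 340 short genes left had -0.95. At T4 alone the short members had -2.32 (48 of 49 lower) and the long ones -0.72 (14 of 21 lower), and the other short and long genes -1.50 and 0.04, so the 2 length classes of members lay further apart than at T0 (-1.29 and -0.94). Over the 3 times summed, the median of long members thus lay below that of other long genes. The medians of short members and other short genes lay closer together there, but not at T4. With time in controls the 2 length classes of other genes did not part, at -0.59 and -0.58. Atp5a1 and Ndufb2 are among the long members, Ndufa4 is not. The part of length in the members' values was not tested. Rank correlations of length with log2 ratio were 0.31 over the members and 0.33 over the other genes, in the same pooled libraries.

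**Figure D5:**
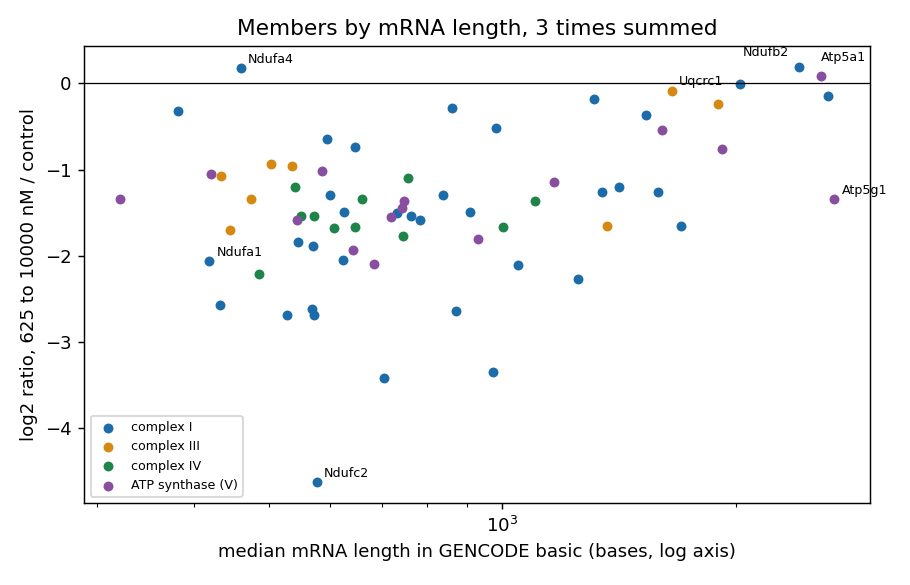
Log2 ratio of pooled levels at 625 to 10000 nM halofuginone to control over 3 times (y axis) against median annotated mRNA length (x axis, bases, log scale) for 70 members, coloured by complex. The 49 members under 1000 bases have a median of -1.54, and Atp5a1 and Ndufb2, both above 2000 bases, lie just above 0.

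Promoters of 4 members are printed because nuclear respiratory genes are known to share sites for NRF1 and ETS-family factors and these 4 hold such letters. Each was called lower in at least 1 comparison, Uqcrh only at high doses with proline at T0, and no comparison called all 4. Each is the 150 bases before the RefSeq start in GRCm38.p6, on the minus strand: Atp5k chr5:108434400-108434549, Atp5h chr11:115419920-115420069, Uqcrh chr4:116075071-116075220 and Cox6b1 chr7:30626115-30626264. They read 5′ to 3′ with motif matches on either strand in capitals.
Atp5k: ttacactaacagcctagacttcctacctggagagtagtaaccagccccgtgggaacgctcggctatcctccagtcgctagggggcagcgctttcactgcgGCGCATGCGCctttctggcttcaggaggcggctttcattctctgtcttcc
Atp5h: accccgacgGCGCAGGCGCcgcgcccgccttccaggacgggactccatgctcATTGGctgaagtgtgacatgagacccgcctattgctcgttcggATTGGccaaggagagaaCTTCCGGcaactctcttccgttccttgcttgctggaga
Uqcrh: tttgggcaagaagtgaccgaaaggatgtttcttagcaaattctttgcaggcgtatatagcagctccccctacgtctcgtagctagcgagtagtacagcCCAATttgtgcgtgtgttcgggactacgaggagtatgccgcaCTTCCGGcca
Cox6b1: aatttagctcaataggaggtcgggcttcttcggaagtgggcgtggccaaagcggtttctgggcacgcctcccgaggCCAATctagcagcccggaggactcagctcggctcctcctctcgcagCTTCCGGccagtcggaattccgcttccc
Atp5k and Atp5h hold an NRF1 match, 50 and 141 bases before the start, and Atp5h, Uqcrh and Cox6b1 hold an ETS match 38, 10 and 28 bases before it. Atp5h also holds 2 CCAAT boxes, and Uqcrh and Cox6b1 hold 1 each.

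Over the 66 members with an entry in the RefSeq promoter table (250 bases before to 50 after the start), the NRF1 motif (GCGC, any base, then TGCGC, on either strand) was in 22.7%, beside 12.8% of the 3935 genes with a promoter and at least 80 counts and 7.17% of all 17491 genes. The ETS motif (CCGGAAG, or CTTCCGG) was in 21.2%, 22.4% and 12.9%. A YY1 motif (AAGATGGC, or GCCATCTT) was in 16.7%, 5.74% and 3.57%, and the TATA motif (TATAAA, or TTTATA) in 10.6%, 9.38% and 14.8%. CCAAT (or ATTGG) was in 43.9%, 41.0% and 42.3%, and the cyclic AMP response element TGACGTCA in 6.06%, 3.94% and 2.54%. NRF1 and YY1 letters were thus more common among member promoters than among promoters of counted genes, a description without a test.

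Other genes of the pathway were sparse in these libraries. None of the complex II subunits, assembly factors or mitochondrial ribosomal proteins in the lists passed the filter in the comparisons of high doses with control. Their summed levels went from 497 to 268 CPM for complex II, 1029 to 514 CPM for assembly factors and 2038 to 1064 CPM for mitochondrial ribosomal proteins at T0, and at T4 from 239 to 226, 908 to 474 and 1153 to 580 CPM. Enzymes of the TCA cycle and pyruvate entry summed to 1276 CPM in controls and 939 CPM at high doses at T0, and 968 and 669 CPM at T4. The one tested, Ogdh, a subunit of the oxoglutarate dehydrogenase complex, was not called at high doses without proline (log2 -0.15 at T1 and -0.61 at T4). With proline it was lower at T1 (log2 -2.65, edgeR adjusted p = 0.00963) and T4 (log2 -1.55, edgeR adjusted p = 0.00725), and it was higher at T4 in controls (log2 0.79, edgeR adjusted p = 0.00699).

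Of mitochondrial carriers and membrane proteins, 3 of 23 were tested, and 1, 1 and 2 were lower at high doses at T0, T1 and T4. Chchd2, a protein of the intermembrane space, was lower at all 3 times (log2 -1.24, -3.14 and -2.64, edgeR adjusted p = 0.0405, 0.00288 and 0.00285). Slc25a3, the phosphate carrier that supplies ATP synthase, was lower at T4 (log2 -2.85, edgeR adjusted p = 0.00452), and in controls it was lower at T4 than at T0 (log2 -0.73, edgeR adjusted p = 0.00593). Cycs, cytochrome c, was 1 of 2 tested genes among the carriers and subunits outside the symbol rule at T4 and was lower (log2 -1.71, edgeR adjusted p = 0.00351). Among regulators of mitochondrial biogenesis Myc alone was tested, at T1, and not called (log2 0.32), and the summed level of that list was 430 CPM in controls and 639 CPM at high doses at T0 and 243 and 229 CPM at T4.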

How the data were processed

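RNA of 120 macrophage libraries was measured by 3′ digital gene expression. The deposited table has 1 row for each of 23481 gene symbols and holds unscaled counts, per the labels. The submitters' processing notes name BWA and mm10. Not given in the sources used here are their versions, how reads were counted and against which annotation, strandedness, and whether molecular identifiers were collapsed.

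Samples were grouped by the labels into 45 groups. Members were the symbols matching the pattern given above. Members, lists and tests were chosen with earlier results of these data known. Gene positions and mRNA lengths came from GENCODE M21 (GRCm38). Shares are percentages of counts outside Rn45s and have no test. The share's Wilson intervals were at 95%.

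Tests on counts ran in edgeR 4.0.16 under R 4.3.3 (quasi-likelihood, TMM scaling, filterByExpr with a minimum count of 10, robust dispersion), two-sided, in 19 comparisons. LPS comparisons used the 36 controls, those of a time all 40 libraries, with each treated side the mean of its doses, and the interactions 54 libraries. Benjamini-Hochberg adjustment ran over all genes tested in a comparison, at 0.05. Each SE was derived from the log2 fold change and its F statistic (size over the root of F). Tables were handled in Python 3.11.15 with pandas 2.3.3 and scipy 1.17.1. The procedure was also run on simulated data with the same spread set for every gene. That setting is simpler than these data, and its outcome is not drawn on here.

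Members were named by this rule: the 4 with the highest mean level in each complex, the 3 with the smallest adjusted p in each direction and comparison, and Atp5g1, Atp5g2, Atp5g3, Ndufa4, Cox4i1 and Cox7a2l. Ndufc2, Ndufb2, Cox5a, Cox7b, Atp5e and Atp5h were added after their values were seen, as were members named for having few counts or none. Pathway lists covered complex II, subunits and carriers outside the symbol rule, assembly factors, the TCA cycle, mitochondrial carriers, mitochondrial ribosomal proteins and regulators of biogenesis, and marker lists covered macrophages, neutrophils, T and NK, dendritic, erythroid and mast cells and fibroblasts. A further marker list is not reported here.

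Alternatives were DESeq2 1.42.0, median-of-ratios scaling, no filter, replicate number as a block, no Rn45s row, no 10000 nM dose, shares of all counts, accepted subunits only and each library left out in turn. Chosen after seeing the data were the minimum of 80 counts, the length split, the motifs and promoters shown, the doses of a side taken as 1 group, and fits without libraries under 30000 counts or without structural RNA genes.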

Additional observations from a re-analysis of the deposited data

Results flagged for a closer look

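In 4 of 60 checks 1 library lay far from the others by Dixon's criterion. The checks covered 5 shares (4 complexes and their total) in each of 12 groups of 4 or 6 libraries at middle and high doses, so they are not independent, and chance alone marks about 1 in 20. The complex III share at high doses at T0 had its highest library at 0.1078% (10000 nM, replicate 2). The complex I share at high doses with proline at T0 had its highest library at 0.2664% (2500 nM, replicate 1). The complex IV share at high doses at T1 had its highest library at 0.1553% (625 nM, replicate 1), and the complex I share at high doses at T4 at 0.1131% (10000 nM, replicate 2).

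The effect of high doses differed between T4 and T0 for Atp5l, with a log2 difference of -3.748, and for Atp5g3, with -3.288, both by the interaction test in edgeR (adjusted p = 0.0148 and 0.0325). With the doses taken as 1 group these were -2.94 and -2.20, and the second was not called (edgeR adjusted p = 0.0592). With 1 library left out they ran from -4.97 to -2.45 and from -4.40 to -2.78, and DESeq2 called neither (adjusted p = 0.0573 and 0.139).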

How the results depend on the processing

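Counts of members called lower or higher kept to 1.5 times their value in 269 recomputations that left no single library out and moved further in 53, and no called direction reversed. The cause of the changes below was not tested unless stated. Numbers of lower members are given for T0, T1 and T4 in turn, or for the time named. They stand without the share called over all genes in the same fit, so they show nothing particular to the members. DESeq2 called 0 in the interaction of T4 with T0, where edgeR called 2. With the doses of a side taken as 1 group, high doses gave 5, 1 and 6, high doses with proline 5, 2 and 5 and middle doses 4, 1 and 4, and 1 member was higher with proline at middle doses at T4. This fit has fewer groups and tested only 9, 2 and 8 members at T0, T1 and T4. Median-of-ratios scaling gave 5 at middle doses at T1 and 1 in the interaction at T4. Without a filter, 74, 74 and 71 members were tested at T0, T1 and T4, and 74 in the LPS comparisons and the interaction. The LPS comparisons then gave 0 at T1 and 2 at T4, and the interaction at T4 0. High doses gave 18, 19 and 30, high doses with proline 27, 18 and 24 and middle doses 4, 7 and 14. At high doses that is a smaller fraction of those tested than with the filter (9 of 14, 4 of 8 and 11 of 13). Without libraries under 30000 counts, high doses at T4 gave 19 of 22 tested, with proline at T1 10 of 18 and middle doses at T1 7 of 18. In that setting 1 member was higher with proline at middle doses at T1. Without the Rn45s row or all structural RNA genes, high doses gave 1 at T1 and 5 at T4, with proline 2 and 5, and middle doses 1 and 4, but these fits tested only 3 members at T1 and 6 at T4. Without 10000 nM, high doses gave 5 of 14 tested at T0 and 2 of 10 at T1, and with proline 4 of 14 at T0. The interactions gave 1 higher at T1 and 1 lower at T4, of 21 tested in each.

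As shares of all counts, Rn45s included, high doses were at 0.297, 0.299 and 0.168 times control, ATP synthase at T4 at 0.214, high doses with proline at 0.263 at T1 and 0.191 at T4 and middle doses at T4 at 0.205. The share with proline was then 2.32 times that without at middle doses at T4. The other 137 recomputed share ratios moved by less than 1 SD. For Atp5a1 the log2 change at high doses ran from -0.65 to 0.34 at T0 (below 0 in 19 of 28 settings), from -2.13 to -0.11 at T1 and from 0.01 to 0.96 at T4, and with proline from -0.33 to 0.67, -0.82 to 0.26 and -1.24 to 0.89. It was not called in the reported fits at any time.

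Leaving out 1 library gave 1 to 9 lower members at high doses at T1, 4 to 9 with proline at T1, 2 to 5 at middle doses at T1, 9 to 18 at high doses at T4, 5 to 10 at middle doses at T4 and 0 to 2 in the interaction at T4. The members higher with proline at middle doses were 0 to 1 at T0 and at T1. At T1, high doses gave 1 without control replicate 5, 2 without control replicate 3, 8 without 2500 nM replicate 2 and 9 without 625 nM replicate 1. With proline at T1 they gave 9 without 10000 nM replicate 1 or 625 nM replicate 2 and 8 without 2500 nM replicate 2. Middle doses at T1 gave 5 without 156 nM replicate 1 or 39 nM replicate 2, and at T4 5 without 156 nM replicate 2. At T4, high doses gave 17 or 18 without any single high-dose library but 2500 nM replicate 1. Where a pair is left with 1 library the filter tests more members, and the lone library is assumed to vary like the others. The interaction at T4 gave 0 without 10000 nM replicate 1 or 625 nM replicate 2 of T0, and 1 without 2500 nM replicate 1 of T0 or any single high-dose library of T4 but 625 nM replicate 2.

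The deviations of same-numbered treated libraries had a median correlation of 0.00616, -0.00372 and -0.00356 at T0, T1 and T4. Among controls across times it was 0.0814, against -0.00686 for different numbers, and 16 of 36 pairs were over 0.1. Not every pair was, and the reported fits did not pair libraries by number. These values do not exclude a pairing among controls. The best match of a library carried its own number in 20, 12 and 6 of 28 treated libraries and in 12 of 36 controls. A treated library has as many candidates of its own number as of the other, so no pairing would give an even split. A control has far fewer candidates of its own number than of others. These counts do not exclude a pairing among treated libraries at T0 or among controls. The block left both LPS comparisons at 1 lower member. Replicate number as a block gave 3, 2 and 5 lower members at high doses. With proline it gave 6 at T0 and 6 at T4, and at middle doses 2 at T0 and 3 at T4. Treated libraries are numbered 1 or 2 only, so in these fits controls with other numbers do not bear on the difference. The lost calls therefore cannot show whether libraries were paired. Depth limits single members: 58 of 80 were tested in no comparison.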
